A study of Homo sapiens with 5 samples.

Results

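FAM86 is a family of closely related human gene copies, and the data described here are the BG4 peaks at the promoters of 7 of them in LNCaP cells. The copies are FAM86A, FAM86B1, FAM86B2, FAM86B3P, FAM86C1, FAM86DP and FAM86JP. Each copy was located by 1 position on the hg19 build, and a peak was taken when it overlapped 2 kb either side of that position. All 7 windows held a peak, and together they make up 7 of the 7520 merged peak regions on chromosomes 1 to 22, X and Y. By peaks, they account for 28 of the 14572 in the 4 lists. The copies were chosen by the presence and the high fold of peaks in these same lists. Presence, fold, width and every other measure of the peaks are therefore given as descriptions, with no test.

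The antibody BG4 recognises G-quadruplexes (G4s), DNA structures in which runs of guanines stack into 4-stranded folds. It was used here to pull down cross-linked, sonicated chromatin of LNCaP, an established prostate cancer cell line, in 4 replicates, with 1 input sample. No treatment or genetic change separates the samples. Separate cultures are not named in the labels, and the spread over replicates may be technical. The lists hold peaks and no expression values, and the cell line was not checked against marker genes.

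FAM86A encodes a lysine methyltransferase that modifies the translation elongation factor eEF2, and its current symbol in RefSeq is EEF2KMT. The other copies arose from it by segmental duplication in primates, and most of them are pseudogenes. RefSeq on the GRCh38 build lists 3 of the 7 copies as protein coding, namely EEF2KMT, FAM86B1 and FAM86B2. The remaining 4, FAM86B3P, FAM86C1P (matched to FAM86C1 by adding the P), FAM86DP and FAM86JP, are listed as transcribed pseudogenes. G4s are found often at the guanine-rich promoters of active genes, upstream of the transcription start.

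The copies also share their neighbours. In the gene order of that RefSeq table, the gene next to each of the 7 copies on one side is ALG1, which encodes a mannosyltransferase of protein glycosylation, or a gene named after it. ALG1 itself adjoins EEF2KMT. The other 6 adjoin ALG1L11P (FAM86B1), ALG1L12P (FAM86B2), ALG1L13P (FAM86B3P), ALG1L9P (FAM86C1P), ALG1L6P (FAM86DP) and ALG1L1P (FAM86JP). On the opposite side, within 3 genes, all 7 have a pseudogene of the ENPP7P series. ALG1 or its relative comes at lower coordinates in 4 copies (FAM86A, FAM86B1, FAM86B2 and FAM86DP) and at higher coordinates in 3 (FAM86B3P, FAM86C1 and FAM86JP). The copies are thus embedded in a common block that occurs in both orientations.

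Because the copies are nearly the same in sequence, a short read from one of them can match several. The labels' tools name Bowtie2 as the aligner, and the handling of reads that match more than 1 place is not given in the sources used here. From peak lists, BG4 signal of one copy cannot be told apart from signal of another that was placed on it. Values of single copies below carry that limit. So does their sum, since RefSeq lists 8 further copies of the family.

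Each copy carried a single peak in each replicate, 28 peaks in 28 windows. All 7 were called in 4 of 4 lists, where 11.8% of all merged regions were. The peaks that chose the copies set this count. Apart from the peaks of the copies themselves, the nearest peaks of any list were a peak of replicate 1 at 18.4 kb from FAM86B3P, with 13 reads at its summit, and a peak of replicate 3 at 19.1 kb from FAM86B2, with 16 reads. For the other 5 copies the nearest such peak was 139 to 261 kb away.

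At every copy the peaks of the 4 replicates shared most of their stretch, least at FAM86B2, where the start moved by 279 bp between replicates. In hg19 coordinates, the region called at FAM86B1 ran from 12051483 to 12052556 on chromosome 8, and 860 bp of it lay within the peak of all 4 replicates. FAM86B2 lay on the same chromosome, from 12293548 to 12294657, with 790 bp common to all 4 peaks. The third copy of chromosome 8, FAM86B3P, ran from 8085132 to 8086185 with 929 bp in common. FAM86A occupied 5147678 to 5148735 on chromosome 16, with 818 bp in common. On chromosome 11 the region of FAM86C1 ran from 71497654 to 71498668, with 861 bp in common. Both copies of chromosome 3 had slightly more, 920 bp for FAM86DP (75484241 to 75485245) and 891 bp for FAM86JP (125634546 to 125635560). No hg19 annotation was used, so exons and untranslated regions at these positions were not analysed here.

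**Figure D1:**
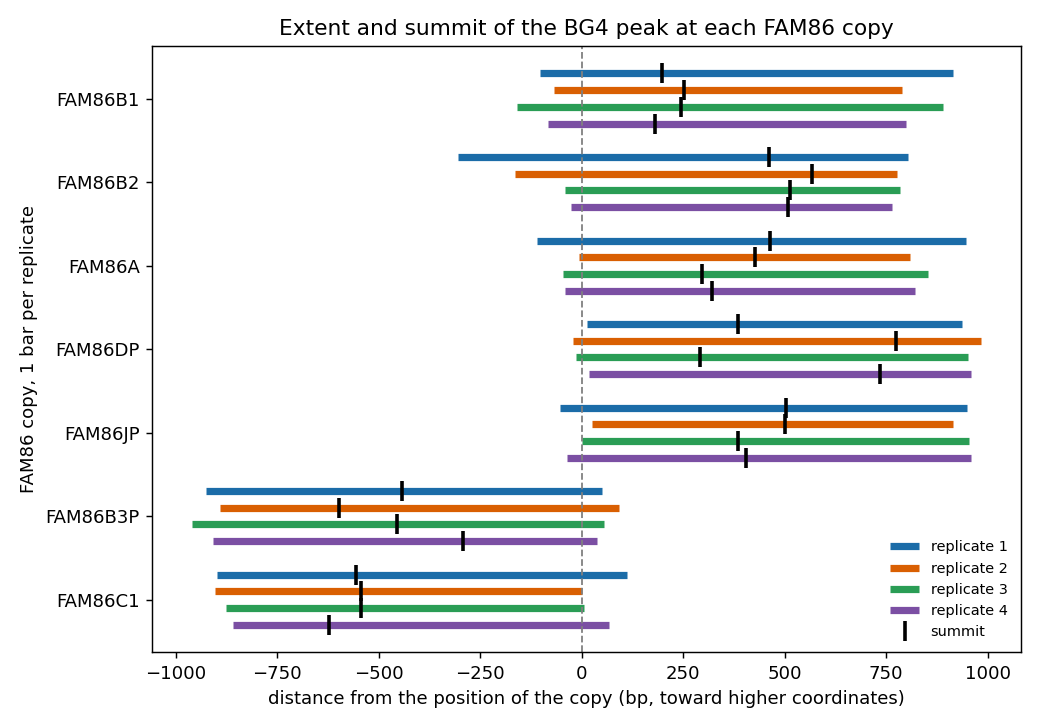
Extent of the BG4 peak at each FAM86 copy, with 1 bar per replicate and a black tick at the summit, against the distance in bp from the position of the copy (dashed line) toward higher coordinates. At each copy the bars begin near the position and run to one side, toward higher coordinates in 5 copies and toward lower ones in FAM86B3P and FAM86C1, and the ticks of FAM86DP fall at 2 places.

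The peaks lay to one side of the position of their copy. Of the 28 peaks, 25 spanned the position itself and 3 began 14 to 26 bp from it, while the far edge was 764 to 984 bp away. At FAM86A, FAM86B1, FAM86B2 and FAM86DP the peak extended toward higher coordinates, and at FAM86B3P and FAM86C1 toward lower ones. In these 6 copies that is the side of the ENPP7P neighbour, in both orientations of the block. FAM86JP was the exception, with its peak on the ALG1L1P side. Its position, like the others, was not checked against an hg19 annotation. With the opposite end of the peak as its reference FAM86JP would match the other 6. Such a switch reverses the side of any peak, so the match does not show which end is right. The comparison takes the gene order of GRCh38 to hold for hg19.

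Summits, the points of most reads, were then located within the peaks. At FAM86B1 they lay 197, 253, 244 and 182 bp from the position in replicates 1, 2, 3 and 4, a range of 71 bp. FAM86C1 was similarly narrow, with summits at -557, -544, -543 and -623 bp, where the minus sign means lower coordinates. These were the tightest of the copies, and the summits of FAM86B1 lay in the part of the peak nearest to the position.

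At FAM86B2 the summits were at 462, 567, 513 and 508 bp, farther out than those of FAM86B1. The ranges of these copies did not overlap, so FAM86B1 and FAM86B2, neighbours on chromosome 8, differed in where their summits lay by more than the replicates did. FAM86A had summits at 464, 427, 296 and 320 bp. FAM86JP had them at 504, 502, 385 and 404 bp, or 445, 414, 569 and 556 bp from the far end of its peaks. FAM86B3P was more scattered, at -442, -598, -455 and -291 bp.

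FAM86DP had its summits at 2 places. They lay 385 and 292 bp from the position in replicates 1 and 3, and 774 and 734 bp from it in replicates 2 and 4. The range of 482 bp was the widest of the 7 copies and above that of 98.6% of the other 879 regions called in all 4 lists, whose median was 92 bp. Peak width limits this range, and those regions had a median width of 424.5 bp. The 9 of them at least as wide as the narrowest copy had ranges of 10 to 441 bp. The edges of the same peaks moved by only 38 bp (start) and 47 bp (end). The summits farther out, in replicates 2 and 4, held 30 and 41 reads, and those nearer to the position 46 and 44. Replicates 2 and 4 were also the shallowest lists, with 2.48 and 2.72 BG4 reads per kb, against 3.43 and 3.01 in replicates 1 and 3. Divided by the lowest background of their list, the summits farther out had 47.4 and 56.7, and those nearer 52.8 and 58.5. Whether depth has a part in the 2 places was not tested.

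The peaks of the copies were wide. FAM86B3P had widths of 976, 984, 1015 and 948 bp in replicates 1 to 4 (mean 981 ± 27.6 bp, SD, n = 4). Those of FAM86JP were 1004, 891, 955 and 998 bp (962 ± 52.1 bp), and those of FAM86DP 924, 1005, 969 and 943 bp (960.2 ± 35.1 bp). FAM86B1 had 1018, 860, 1051 and 882 bp (953 ± 95.8 bp). FAM86C1 had 1011, 906, 883 and 927 bp (932 ± 55.8 bp). The widths varied most at FAM86B2, with 1110, 944, 827 and 790 bp (918 ± 144 bp), and at FAM86A, with 1058, 818, 900 and 865 bp (SD 104 bp), and replicate 1 was the widest at both. The means of the 7 copies ran from 910.2 bp, for FAM86A, to 981 bp, and each step between neighbours in that order was smaller than the larger of their SDs.

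The 28 peaks measured 790 to 1110 bp, and the narrowest of them, in replicate 4, was still wider than 98.5% of the peaks of its list. The median peak of a list had 322 to 346 bp. Averaged over replicates, 9 of the other 879 regions called in all 4 lists were at least as wide as the narrowest copy. Wide peaks often have many reads, so the copies were also set beside the 68 other regions with as many summit reads, relative to the genome, as the lowest copy. Those had a median width of 584 bp and an upper quartile of 713 bp, and 5 of the 68 were at least as wide as the narrowest copy.

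**Figure D2:**
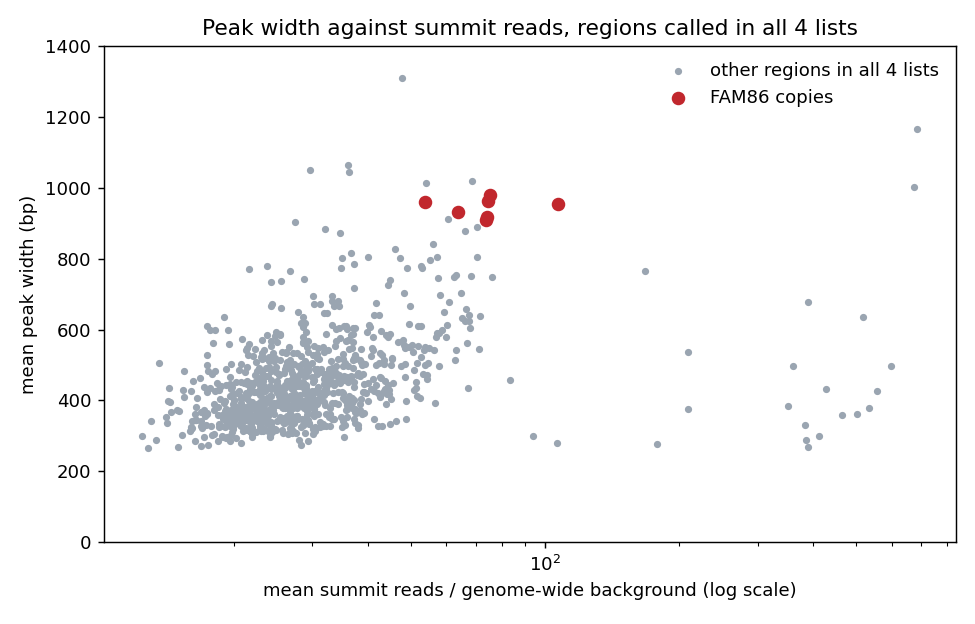
Mean peak width in bp against mean summit reads over the genome-wide background (log scale) for every region called in all 4 lists, each point 1 region averaged over 4 replicates. The 7 FAM86 copies (red) lie close together between 910.2 and 981 bp, above nearly all regions (grey) with the same number of reads.

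The copies differed in fold enrichment, the ratio of BG4 reads at the summit to the local background, each with 1 added. The authors' caller took that background from the input. FAM86B1 had deposited folds of 27.8, 18.4, 20.7 and 19.9 in replicates 1 to 4 (mean 21.7 ± 4.17, SD, n = 4). It had the highest fold of the family in 4 of 4 lists, with replicate 1 above the other 3. In replicates 3 and 4 that rank depends on the added 1. FAM86DP had 44 and 41 reads over backgrounds of 1.28 and 1.24 reads there, against 86 and 62 over 3.21 and 2.16 at FAM86B1. With no 1 added, FAM86DP would be above FAM86B1 in these lists, and below it in replicates 1 and 2. FAM86JP followed with 24.1, 13.5, 18.2 and 18.7 (18.6 ± 4.33). FAM86DP had 19.1, 11.97, 19.7 and 18.8 (17.4 ± 3.63). In both of these pseudogenes replicate 2 was the lowest.

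FAM86A, the gene of the eEF2 methyltransferase, had folds of 16.7, 9.57, 18.5 and 17.4 (15.5 ± 4.04). Here too replicate 2 stood below the other 3. FAM86C1 had 16.4, 13.5, 16.6 and 12.96 (14.9 ± 1.91). The lowest folds were at the remaining copies of chromosome 8. FAM86B3P had 12.1, 9.33, 10.3 and 10.9 (10.6 ± 1.15), and FAM86B2 had 10.7, 12.1, 8.97 and 9.74 (10.4 ± 1.33). The lowest fold of the family was that of FAM86B2 in 3 lists and that of FAM86B3P in replicate 2.

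In this order, each copy from FAM86B1 to FAM86C1 differed from the next by less than the larger of their SDs over replicates, as did FAM86B3P and FAM86B2. Part of that spread was common to the copies of a list, so neighbours were also compared within lists. FAM86B1 exceeded FAM86JP in 4 of 4 lists, by 1.26 to 4.84 (mean difference 3.07 ± 1.54, SD, n = 4). FAM86DP exceeded FAM86A in 4 of 4, by 1.25 to 2.40 (1.84 ± 0.608). FAM86C1 exceeded FAM86B3P in 4 of 4, by 6.36 at most (4.23 ± 1.74), and this step was also larger than the SD of either copy. The order was mixed for the other neighbours, with FAM86JP above FAM86DP in 2 lists, FAM86A above FAM86C1 in 3 and FAM86B3P above FAM86B2 in 3. The mean fold of FAM86B1 was 2.09 times that of FAM86B2, although both are protein-coding copies of chromosome 8.

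**Figure D3:**
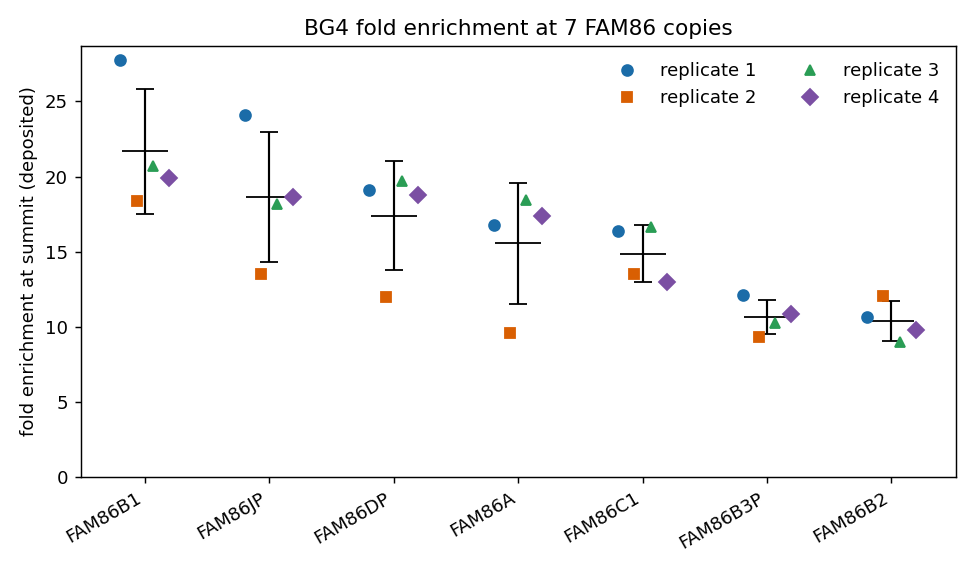
Deposited fold enrichment at the BG4 summit (vertical axis, no unit) for each FAM86 copy, with 1 symbol per replicate, a horizontal line at the mean and whiskers of 1 SD over 4 replicates. FAM86B1 is the highest copy in every replicate, and FAM86B2 and FAM86B3P lie between 8.97 and 12.1.

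The fold divides 2 quantities, each with 1 added, and both were recovered from the deposited values. BG4 reads at the summit of FAM86B1 numbered 108, 66, 86 and 62 in replicates 1 to 4. FAM86B2 had 72, 43, 54 and 54 reads, and FAM86B3P had 73, 38, 62 and 54. FAM86A had 77, 39, 53 and 54, and FAM86JP had 76, 34, 58 and 58. FAM86C1 had 58, 38, 53 and 42, and FAM86DP the fewest in all 4 lists, with 46, 30, 44 and 41. FAM86B2 and FAM86B3P, lowest by fold, were thus not low in reads.

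To compare replicates of different depth, reads were divided by the genome-wide background of their list. FAM86B1 then had 107 ± 16.4 times that background (SD, n = 4). FAM86B3P, FAM86JP, FAM86B2 and FAM86A had nearly equal means, 75.2 ± 10.9, 74.6 ± 14.6, 74.3 ± 6.26 and 73.8 ± 11.2. FAM86C1 followed with 63.8 ± 5.79 and FAM86DP with 53.9 ± 4.93. FAM86B1 exceeded the next copy by 31.8, more than the SD of either, and FAM86C1 exceeded FAM86DP by more than either SD. Among the 4 copies between 73.8 and 75.2 no difference exceeded the SDs.

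Counting error limits the comparison within a single list. The 95% exact Poisson interval of the 108 reads at FAM86B1 in replicate 1 was 88.6 to 130.4, against 60.8 to 96.2 for the 77 reads of FAM86A, the next copy. The intervals of FAM86B1 and the next copy overlapped in 4 of 4 lists. Those of FAM86B1 and FAM86DP were apart in 3 of 4. These intervals cover counting error only.

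FAM86B1 held 20.5 ± 2.51% (SD, n = 4) of the summit reads summed over the 7 copies. FAM86B2, FAM86B3P, FAM86A and FAM86JP each held 14.1% to 14.4% on average, FAM86C1 12.3 ± 0.944% and FAM86DP 10.4 ± 0.949%. The sum was 510, 288, 410 and 365 reads in replicates 1 to 4. Over the genome-wide background of each list it was 586, 455, 545 and 504, a mean of 523 ± 56.1. Depth differed between the lists, with 3.43, 2.48, 3.01 and 2.72 BG4 reads per kb in the same order, and replicate 2, the shallowest, also had the lowest sum after this division.

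**Figure D4:**
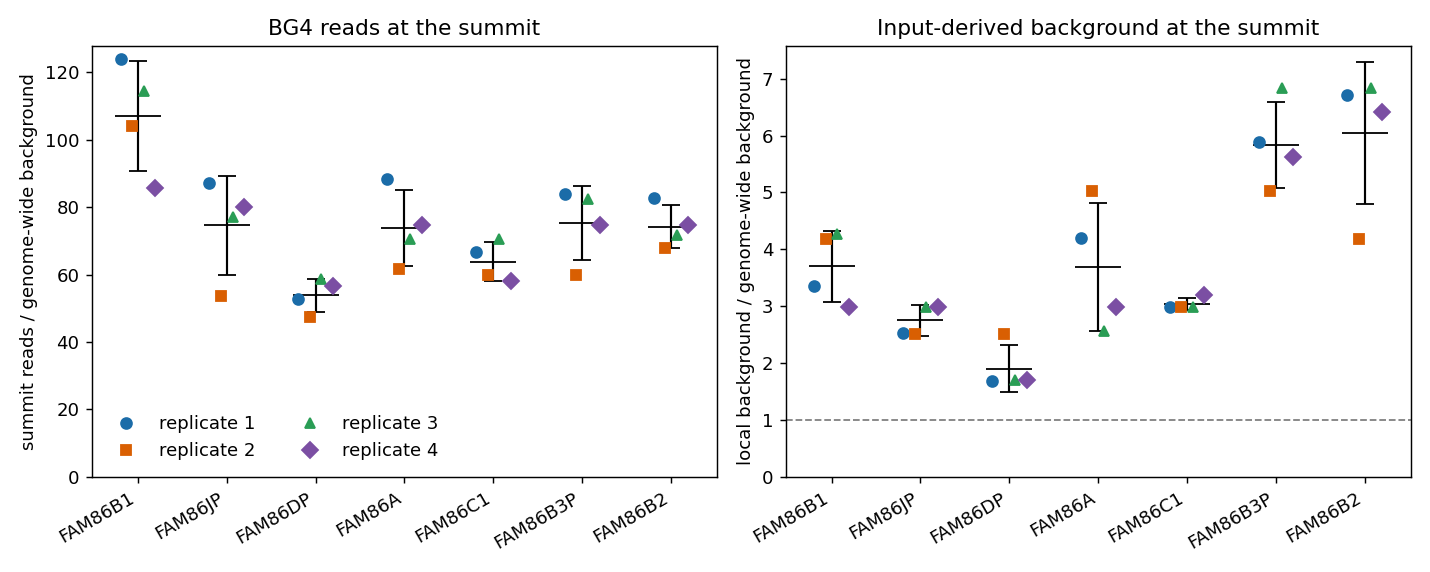
Left, BG4 reads at the summit over the genome-wide background of the same list; right, local background over that genome-wide level (dashed line at 1), both ratios without unit, for each FAM86 copy with 1 symbol per replicate, the mean and 1 SD over 4 replicates. FAM86B2 and FAM86B3P have reads near those of FAM86A and FAM86JP but the highest backgrounds, 6.04 and 5.84 times the genome level on average.

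The background, which comes from the input, also differed between the copies. At FAM86B2 it was 6.72, 4.18, 6.83 and 6.42 times the genome-wide level in replicates 1 to 4 (mean 6.04 ± 1.25, SD, n = 4). At FAM86B3P it was 5.88, 5.02, 6.83 and 5.62 times (5.84 ± 0.753). FAM86B1 had 3.36, 4.18, 4.27 and 2.99 times (3.70 ± 0.627). FAM86B1 therefore lay below both other copies of chromosome 8 in 3 lists, and in replicate 2 it had the same background as FAM86B2.

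FAM86A had 4.20, 5.02, 2.56 and 2.99 times (3.69 ± 1.13). FAM86C1 had 2.99, 2.99, 2.99 and 3.20 (3.04 ± 0.107), and FAM86JP had 2.52, 2.51, 2.99 and 2.99 (2.75 ± 0.273). FAM86DP had the lowest background of the family, 1.68, 2.51, 1.71 and 1.71 times (1.90 ± 0.406). The same input served the 4 lists, at 4.69 reads per kb in each, so the SDs of the background reflect where the summit fell and not 4 measurements of the input.

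All 28 peaks had a background above the genome-wide level. Over whole lists the share was 91.1%, 94.5%, 92.5% and 92.5% in replicates 1 to 4, and the count is near it. The size of the background differed more. Its median over all peaks of a list was 1.68 to 1.71 times the genome-wide level. Averaged over replicates, 6 of the 7 copies lay above the median of the other 879 regions called in all 4 lists, 1.92, and 5 above their upper quartile of 2.76. FAM86DP, at 1.90, was the copy below the median. The 68 regions with as many summit reads had a median background of 4.82 times. Of the 7 copies 2 lay above it, FAM86B2 and FAM86B3P, and none lay above the upper quartile of 68.9. That set includes regions of very high background, up to 420 times, which raise both values. FAM86B1 and FAM86A lay between its lower quartile of 3.17 and its median, and the other 3 copies below that quartile. The copies were not compared with the remainder of the set alone.

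The backgrounds translate into whole input reads. In 19 of the 28 peaks the background was assigned to a window of 1 fragment length around the summit, with 2 to 8 input reads in it. In 9 peaks it was assigned to a window of 1 kb, with 8 to 15. The fragment length of replicate 3 was 250 bp, so whole reads per fragment are also whole reads per 1 kb. Where both windows fitted in that list they could not be told apart, and the fragment was taken. FAM86B2 could there have 8 input reads in a fragment or 32 in 1 kb, and FAM86DP 2 or 8. At FAM86C1 it was 14, 14, 14 and 15 input reads within 1 kb. As assigned, FAM86B2 had 8, 5, 8 and 8 input reads within 1 fragment length. A count of 8 reads has a 95% exact Poisson interval of 3.45 to 15.8. FAM86DP was assigned 2, 3 and 2 in replicates 1 to 3, with an interval of 0.242 to 7.22 for 2 reads, which overlaps that of 8 reads. The fold of a single copy thus rests on few input reads. What part copy number, read placement or chromatin has in the input level was not tested.

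Beside other regions, the copies ranked high in reads and less evenly in fold. Relative to the genome-wide background, the mean summit reads of the copies lay above those of 92.3% (FAM86DP) to 97.7% (FAM86B1) of the other 879 regions. By mean fold FAM86B1 was above all 879, FAM86JP above 99.4%, FAM86DP above 99.0% and FAM86A above 97.3%. FAM86C1 was above 96.6%, FAM86B3P above 76.7% and FAM86B2 above 74.3%. Among the 68 regions with as many summit reads, FAM86B1 was above all, FAM86JP above 97.1%, FAM86DP above 92.6%, FAM86A above 85.3% and FAM86C1 above 83.8%. FAM86B3P and FAM86B2 were above 51.5% and 50.0% of that set. It includes regions of very high background and low fold, such as 1 with 420 times the genome-wide level and a fold of 1.62. The lower quartile of fold in the set was 3.45. Such regions raise the ranks of the copies, and the remainder of the set was not compared alone. Since high folds had a part in the choice of these loci, the ranks describe that choice.

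The 5 other regions most like the copies were sought by the distance of their folds and backgrounds in the 4 lists, on the log2 scale, from the mean of the 7 copies. This compares 4 replicates of 1 cell line. Closest was a region on chromosome 11, from 3443638 to 3444760, at a distance of 0.447, smaller than that of any of the 7 copies (0.543 to 2.02). Its folds were 12.7 to 14.9 and its backgrounds 3.41 to 4.20 times the genome-wide level. The next were on chromosome 19, from 9929653 to 9930524, on chromosome 4, from 9154190 to 9155051, on chromosome 1, from 54411172 to 54412080, and on chromosome 3, from 129830270 to 129831270, at distances of 0.617 to 0.741.

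Width was not used to find these 5 regions. Their mean widths were 1020, 804, 806, 749.5 and 888 bp in the same order, against a median of 424.5 bp over the 879 regions. Of the 8 further FAM86 pseudogenes, FAM86HP lies on chromosome 3, FAM86EP, FAM86KP and FAM86MP on chromosome 4, FAM86GP and FAM86C2P on chromosome 11, FAM86LP on chromosome 7 and FAM86FP on chromosome 12. Of the 5 regions, 3 lie on chromosomes with such a copy. Whether they lie at these copies was not tested, since the gene table is on GRCh38 and positions were not converted between builds.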

How the data were processed

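Chromatin from LNCaP cells was pulled down with BG4 in 4 replicates, with 1 input. MACS2 2.1.1, Bowtie2 2.2.5, SAMtools 1.11, bcl2fastq 1.8.4 and the hg19 build are named in the submitters' processing notes. Of their settings, nothing is given in the sources used here. For each replicate the authors deposited 1 peak list. Each gives a score (not used), the fold at the summit (a ratio to the local background), and its −log10 p and −log10 q as the authors' caller wrote them.

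The members, lists and measures were chosen with earlier results of these data known. In each window the peak of highest fold was taken. Coordinates are 1-based. Summit reads and backgrounds were solved from fold and −log10 p, taking MACS2's pseudocount of 1 and Poisson p, and a whole number of reads matched within 0.001 for 100% of peaks in each list. The genome-wide level is the lowest background of a list. The ratio of BG4 to input reads (0.732, 0.530, 0.642 and 0.581 in replicates 1 to 4) was found by fitting backgrounds to whole input reads in windows of 1 fragment length (the smallest peak width, 250 to 266 bp) or 1 kb. Between 80.6% and 82.0% fitted within 0.01 reads. On 13905 simulated peaks, 100% of summit reads were recovered in each of 4 lists, and the ratio to within 0.0139%. The simulation was built with the same pseudocount, Poisson p, windows and fragment length that the recovery assumes. It therefore checks the arithmetic and cannot test those assumptions, or the choice between windows, on the deposited lists.

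Overlapping peaks of all lists were merged into regions. Named are the 7 copies and the 5 regions nearest to their mean by Euclidean distance over log2 fold and log2 background. Other settings were thresholds on −log10 q, equal list lengths, other windows, other definitions of fold and summit, and each replicate left out. The planned comparison of promoter sequences was not run. The software was Python 3.11.15 with scipy 1.17.1, numpy 2.4.6, matplotlib 3.10.9 and pandas 2.3.3.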

Additional observations from a re-analysis of the deposited data

Results flagged for a closer look

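Of 35 sets of 4 replicate values (fold, width, summit distance, background and summit reads at 7 copies), 4 held a replicate far from the other 3 by Dixon's ratio at the 95% level. About 1 in 20 such sets would be marked by chance, a rate that holds only for independent, continuous values that were not selected. The backgrounds are whole reads of 1 input, and a set of 3 equal values and 1 other is always marked. FAM86DP had a fold of 11.97 in replicate 2, against 18.8 in the nearest replicate. Its background in replicate 2 was 2.51 times the genome-wide level, against 1.71 in replicates 3 and 4. That is 3 input reads within 1 fragment length in replicate 2, against 8 within 1 kb in replicate 4. In replicate 3 it could be 2 within 1 fragment length or 8 within 1 kb. FAM86B2 had a background of 4.18 times in replicate 2, against 6.42 in the nearest, or 5 input reads against 8. FAM86C1 had 3.20 times in replicate 4, against 2.99, or 15 input reads within 1 kb against 14. All 3 backgrounds come from the same input, read at summits that differ between lists. The differences at FAM86C1 and FAM86B2 are of 1 to 3 reads.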

How the results depend on the processing

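At a minimum −log10 q of 3 or of 5, all 7 copies had a peak in 4 of 4 lists. The lowest −log10 q of the 28 peaks was 23.2, so these thresholds could not remove any of them. The count was the same in lists of equal length (1640 peaks), with windows of 1 or 5 kb, and with the summit required inside the window. The window of 5 kb could not lower it. Leaving out 1 of 4 replicates cannot move a mean by 1 SD, so that setting could not show instability. Each window held a single peak, so settings that only pick or add peaks gave the same means of fold and width. Means of fold, width, summit distance and background stayed within 1 SD with the other settings run except 2. Summit reads over the genome-wide background in place of fold gave another scale and order, 107 for FAM86B1, 75.2 for FAM86B3P, 74.6 for FAM86JP, 74.3 for FAM86B2, 73.8 for FAM86A, 63.8 for FAM86C1 and 53.9 for FAM86DP. The midpoint of the peak in place of the summit moved the mean distance of FAM86B1 from 219 to 373 bp, of FAM86B2 from 512.5 to 325 bp and of FAM86C1 from -567 to -419 bp. No paired analysis was possible because the BG4 samples form a single group, with no other group to pair them with. Copies were compared with each other within lists. Depth limits the values, with 30 to 108 BG4 reads behind a peak and, as the windows were assigned, 2 to 15 input reads.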
